A study of Mus musculus with 5 samples.

Results

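Cells of the mouse small intestine with high transcript levels of both Cck and Tph1 are described here. They were selected on their transcript counts in 1 droplet library, and 223 of its 9451 cells met the rule (2.36%, exact binomial 95% interval 2.06 to 2.69%). Counts are of unique molecular identifiers (UMIs, 1 per captured RNA molecule), and a level is the UMIs of a gene per 10000 UMIs of the cell. A member, called a double-high cell below, had a Cck level of at least 500 and a Tph1 level of at least 10. Cells with Gip or Sst at 500 or more, Ghrl at 1500 or more, or the goblet genes Zg16, Fcgbp, Clca1 and Spink4 at 500 or more together were left out. For comparison, 738 Cck-only cells (Cck at least 500, Tph1 under 10) and 1730 Tph1-only cells (Tph1 at least 10, Cck under 200) were taken under the same limits.

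The droplet library pooled tdTomato+ epithelial cells of the small intestine from 4 untreated mice aged 6 weeks, of strain C57Bl/6J and genotype Neurog3-Cre; R26-LSL-tdTomato. Neurog3 is switched on in endocrine progenitors, so that Cre recombination leaves their descendants labeled with tdTomato, including cells that did not become endocrine. The other 12 libraries were bulk RNA-Seq of tdTomato+ (CCK+) and tdTomato- (CCK-) cells of Cck-Cre; R26-LSL-tdTomato mice of the same strain, aged 6 to 8 weeks, each library from 1 mouse. CCK+ and CCK- libraries that share a letter were taken to come from the same mouse, which gives 3 mice fasted overnight and 3 fasted and then refed Ensure. The titles of all sorted groups name CCK+ cells, so the cell type labels were used to tell CCK+ from CCK-. Cck-Cre marks any cell in which Cck was active at some time, so the sorted CCK+ cells are a mixture. Because the droplet cells share 1 library and the 4 mice cannot be told apart in it, no test was possible there, and the 95% intervals cover counting error only.

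Enteroendocrine cells are scattered hormone-producing cells of the gut epithelium. I cells make cholecystokinin, the product of Cck (chr9:121489824-121495694, minus strand, GRCm38), a peptide released after a meal that contracts the gallbladder and curbs feeding. Enterochromaffin cells make serotonin, for which Tph1 (chr7:46644641-46672537, minus strand) encodes the rate-limiting enzyme, and they are rich in the granule proteins chromogranin A and B. The pair of genes thus marks products that are usually assigned to different endocrine cells, and the comparisons below ask which other genes of each type the double-high cells carried.

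The rule met the data differently along its 2 axes, as the plot of Cck against Tph1 shows. Along Cck the double-high cells stood apart. Of 1966 cells with Tph1 at 10 or more, 1730 had Cck under 200, only 13 lay from 200 to under 500, and 223 were at 500 or more. The lowest Cck levels inside were 511, 542 and 545, and the highest levels outside were 484, 481 and 467. Along Tph1 there was no gap. Among the 961 cells with Cck at 500 or more, 318 had no Tph1 UMI, 90 had a level from 5 to under 7.5, 55 from 7.5 to under 10, 85 from 10 to under 15 and 45 from 15 to under 20. The lowest Tph1 levels inside were 10.12, 10.13 and 10.19, and the highest outside were 9.99, 9.99 and 9.92. The double-high cells were 23.2% of the Cck-high cells (20.6 to 26.01%) and 11.3% of the Tph1-high cells (9.97 to 12.8%). Before the limits on the other genes there were 268 such cells, and the goblet limit removed 41 of the 45 that were lost.

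**Figure D1:**
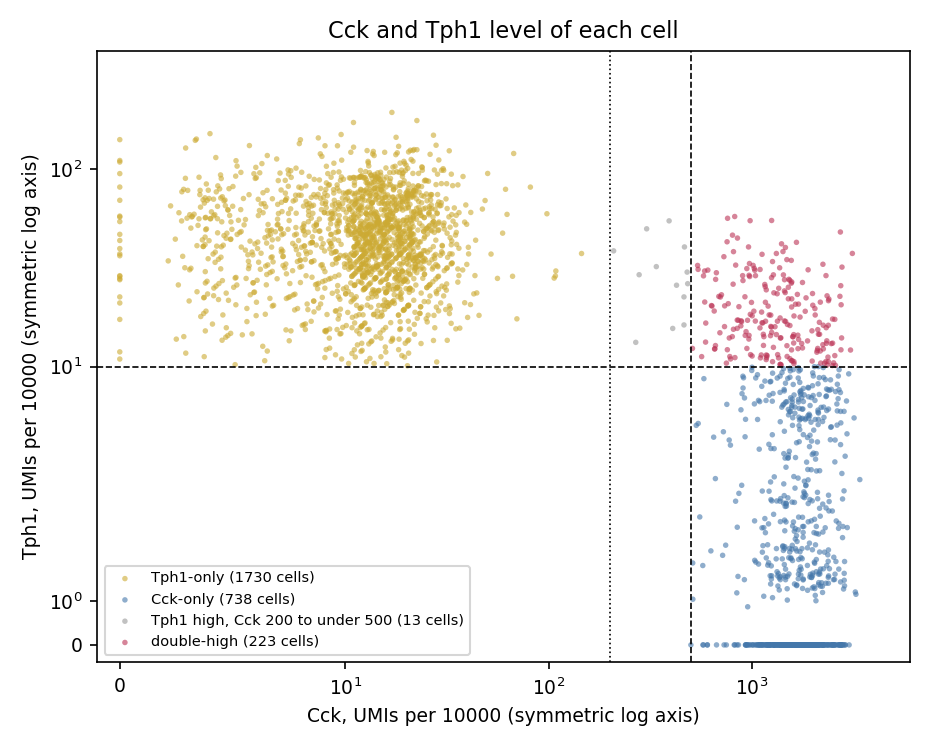
Each point is a cell, with its Cck level on the x axis and its Tph1 level on the y axis, both in UMIs per 10000 on symmetric log axes. Dashed lines mark the minima of 500 and 10 and the dotted line marks 200. The 223 double-high cells (red) are separated from the 1730 Tph1-only cells by a stretch with 13 cells, and adjoin the 738 Cck-only cells without a gap.

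Tph1 was a modest transcript in the double-high cells. They held 3 to 55 Tph1 UMIs each (median 11), and 7 cells held fewer than 5. The Tph1 level had a median of 17.1 and quartiles of 13.0 and 25.9, against quartiles of 30.5 and 64.5 in Tph1-only cells, and the highest level was 57.7. Their Cck level had a median of 1323 (quartiles 950 and 1770, range 511 to 3130), against a median of 1706 in Cck-only cells. Summed over cells, Tph1 was 20.7 in double-high, 2.56 in Cck-only and 48.7 in Tph1-only cells. These values were used by the rule and are a description. As a background, 4195 cells with high goblet genes, low Cck and low Tph1 had a summed Tph1 level of 0.80, and free RNA, taken as the pool of barcodes with 1 to 100 UMIs, had 6.15. After all cells were thinned to 2000 UMIs, at least 1 Tph1 UMI was found in 96.0% of double-high, 34.3% of Cck-only and 13.7% of goblet cells. Before thinning the shares were 100%, 56.9% and 34.5%, the last at a median depth of 6909 UMIs.

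Depth and doublet score differed between the groups. Double-high cells had a median of 6406 UMIs and 2025 genes, Cck-only cells 6104.5 UMIs and 1801 genes, and Tph1-only cells 2950 UMIs and 1325.5 genes. The medians of the comparison groups add up to 9054.5 UMIs, and 23 double-high cells (10.3%) and 49 Cck-only cells (6.64%) were deeper than that. Scrublet scores each cell by its likeness to simulated pairs of cells. Its automatic threshold called 4 of 9451 cells and so did not work, and the 715 cells with the highest scores (7.57%) were taken instead. They included 56 of the 223 double-high cells (25.1%, 19.6 to 31.3%), against 26 Cck-only cells (3.52%) and 52 Tph1-only cells (3.01%). The part of 2 cells in 1 droplet in the levels below was not tested. The levels of some genes are given with and without these 56 cells, and the other values include them.

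Of the 4 marker genes of the label, Cck and Tph1 were set by the rule, so that only Sct and Chgb could be checked. Sct, which encodes secretin, was at 100 or more in all 223 double-high cells, with a lowest level of 307 and a median of 1265. Its summed level of 1264 was 0.92 times that of Cck-only cells (1371) and 1.86 times that of Tph1-only cells (679). Chgb, the chromogranin B gene, was found in every double-high cell, but over a wide range, from 1.62 to 430 with a median of 63.6. Its summed level of 104.9 was close to that of Cck-only cells (90.6) and 0.28 times that of Tph1-only cells (379).

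The other peptide hormones differed from gene to gene. Nts, the neurotensin gene, was at 76.4 in double-high and 72.5 in Cck-only cells but at 1.74 in Tph1-only cells, a 44.0-fold difference (41.2 to 47.0). Ghrl, the ghrelin gene, which the rule capped at 1500, was at 202, 274 and 11.0. Gcg, the source of GLP-1, was lower than in Cck-only cells, at 6.66 against 30.8 (ratio 0.22, 0.20 to 0.23), and Pyy, the peptide YY gene, was at 8.62 against 22.4. Both were at 10 or more in fewer double-high than Cck-only cells, 17.5% against 43.6% for Gcg and 15.7% against 28.2% for Pyy. Both genes were under 10 in 166 of the 223 double-high cells and in 369 of the 738 Cck-only cells. Hormones of Tph1-only cells were present at lower levels. Cartpt, which encodes the CART peptides, was at 3.96, against 0.30 in Cck-only and 18.1 in Tph1-only cells, and Tac1, the substance P precursor, was at 0.82, 0.35 and 8.38. Few double-high cells had them at 10 or more. For Cartpt there were 25 of 223, against 3 of 738 Cck-only cells, and for Tac1 4 of 223, against 5 of 738. Of 9 hormones outside the rule with at least 50 UMIs, 3 were at least 2-fold higher than in Cck-only cells (Tac1, Cartpt and Gast) and 3 at least 2-fold lower (Gcg, Pyy and Gal), and against Tph1-only cells 3 of 9 were higher and 4 lower. Over all genes tested, 1.59% (121 of 7632) were 2-fold higher and 1.07% (82) 2-fold lower than in Cck-only cells. Against Tph1-only cells the shares over all genes were 2.21% (191 of 8637) higher and 11.3% (973) lower.

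Summed over all double-high cells, the serotonin pathway beyond Tph1 differed little from Cck-only cells. None of the 9 measured genes of serotonin synthesis and handling was 2-fold higher or lower than in Cck-only cells, with a median ratio of 1.14, beside 1.05 over all 7632 genes tested. Ddc, which converts 5-hydroxytryptophan to serotonin, was at 2.33 in double-high, 1.89 in Cck-only and 3.78 in Tph1-only cells. Slc18a1, the vesicular transporter that loads serotonin into granules, was at 1.64, 0.89 and 3.82, and was 1.84-fold higher than in Cck-only cells (1.56 to 2.16). Qdpr and Gch1, which serve the biopterin cofactor of Tph1, were at 2.19 and 1.35 in double-high, 1.66 and 1.47 in Cck-only, and 4.72 and 3.31 in Tph1-only cells. Slc18a2, the other vesicular transporter, had 6 UMIs in all double-high cells. Against Tph1-only cells, 4 of 10 measured genes were at least 2-fold lower and none was 2-fold higher, beside 11.3% (973 of 8637) lower and 2.21% (191) higher over all genes tested.

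Of 11 measured enterochromaffin genes, 6 were at least 2-fold higher than in Cck-only cells and none was 2-fold lower, with a median ratio of 2.36, beside 1.59% and 1.07% of all genes, whereas all 12 measured against Tph1-only cells were at least 2-fold lower, with a median ratio of 0.21, beside 11.3% of all genes. The 5 that did not pass against Cck-only cells included Chgb. Reg4, a secreted lectin, was at 66.2 in double-high cells, 9.31-fold above Cck-only cells (8.95 to 9.69) and 0.20 times the 336 of Tph1-only cells. Chga, the chromogranin A gene, was at 29.3 against 8.79 and 133. Lmx1a, a homeobox factor of enterochromaffin cells, was at 0.54 against 0.067 and 1.99, and Trpa1, the irritant channel, at 0.46 against 0.13 and 2.24. Afp, alpha-fetoprotein, was at 6.44 against 0.94 and 33.1. With the cells of highest doublet score left out, Reg4 was at 35.1, Chga at 20.7, Lmx1a at 0.40 and Trpa1 at 0.24 in the 167 double-high cells that remained, while Tph1 stayed at 20.5.

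**Figure D2:**
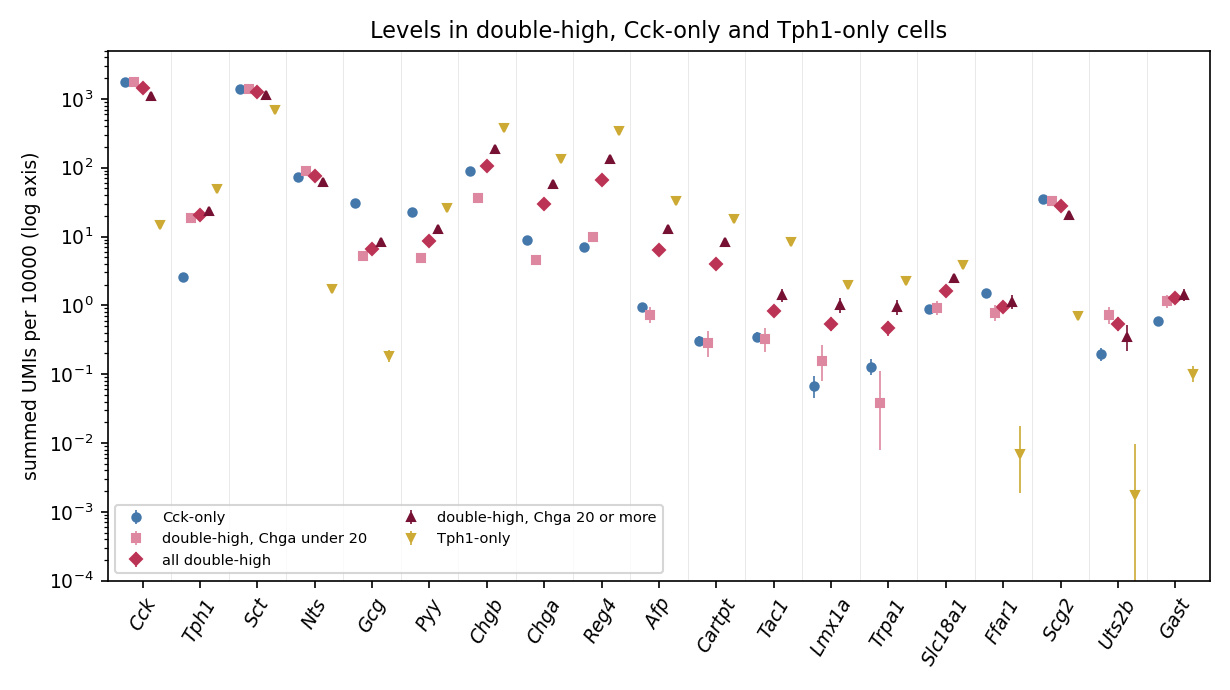
Summed UMIs per 10000 (log axis) of 19 genes in Cck-only cells, double-high cells with Chga under 20, all double-high cells, double-high cells with Chga of 20 or more, and Tph1-only cells. Vertical lines are Poisson 95% intervals for counting error and are often smaller than the symbols. Reg4 rises from 7.10 in Cck-only cells to 66.2 in all double-high and 336 in Tph1-only cells, whereas Nts and Scg2 are near the Cck-only level in double-high cells and at 1.74 and 0.71 in Tph1-only cells.

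The 10 genes with the largest ratio to Cck-only cells were led by Cartpt (13.0-fold, 10.8 to 15.8), Tpbg (10.1-fold, 6.48 to 16.2) and Reg4. Gm42637, Lmx1a, Kazald1, Foxq1, Afp, Col27a1 and Shisa9 followed, from 8.08-fold for Gm42637 to 6.71-fold for Shisa9. All 10 were lower in double-high than in Tph1-only cells. Of the 121 genes 2-fold above Cck-only cells, 92 were also higher in Tph1-only than in double-high cells, and 78 were at least 2-fold higher there. Over all 8637 genes tested, 11.3% were at least 2-fold higher in Tph1-only cells. The median ratio to Tph1-only cells was 0.81, so most genes were higher there. The 10 smallest ratios to Cck-only cells were led by Nap1l5 (0.21, 0.083 to 0.45), Gcg, Sphkap (0.28, 0.15 to 0.49) and Reg1 (0.31, 0.24 to 0.39), the last a secreted protein of the Reg family.

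Against Tph1-only cells, the largest ratios belonged to genes that Cck-only cells carried as well. Of the 191 genes that were 2-fold higher, 182 were within 2-fold of Cck-only cells. This is near the share over all genes. Of all 7632 genes tested, only 1.59% were 2-fold higher and 1.07% 2-fold lower than in Cck-only cells. Uts2b had 79 UMIs in double-high cells against 1 in Tph1-only cells, a ratio of 313 with a counting interval from 54.5 upward. Cyp2j5 followed with 148 against 2. Ffar1, a receptor for long-chain fatty acids, was at 0.94 in double-high, 1.52 in Cck-only and 0.0070 in Tph1-only cells. Rbp4, the retinol carrier, was at 16.45, 18.8 and 0.28. Scg2, the secretogranin II gene, was at 27.3, 34.9 and 0.71, and Cpe, a prohormone-processing carboxypeptidase, at 12.1, 15.02 and 4.61. The smallest ratios to Tph1-only cells were those of Vim (0.079, 0.043 to 0.13), Gm13373 and Tac1 (0.098, 0.081 to 0.12).

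Of 7486 genes, 4 (0.0534%) were at least 2-fold above both comparison groups, namely Uts2b, March11, Etv4 and Gast. Uts2b (chr16:27353322-27370239, minus strand, GRCm38), which encodes a urotensin II-related peptide, was at 0.54 in double-high and 0.20 in Cck-only cells (2.78-fold, 2.03 to 3.8). Gast, the gastrin gene, was at 1.27, against 0.60 in Cck-only (2.12-fold, 1.75 to 2.57) and 0.10 in Tph1-only cells. Only 2 of 223 double-high and 3 of 738 Cck-only cells had Gast at 10 or more. March11, a ubiquitin ligase gene, was 2.71-fold (1.88 to 3.89) and Etv4, an ETS transcription factor gene, 2.14-fold (1.29 to 3.50) above Cck-only cells. Smad6, an inhibitor of BMP signaling and the fifth gene by this measure, was 2.55-fold above Cck-only and 1.87-fold above Tph1-only cells. Against the 369 Cck-only cells with Gcg and Pyy both under 10, a comparison chosen after seeing the data, these ratios were 2.04 for Uts2b, 1.58 for Gast, 1.81 for March11, 1.78 for Etv4 and 2.18 for Smad6. In the 167 double-high cells without the highest doublet scores, Uts2b was at 0.69 and Gast at 1.498. Another 34 genes (0.454%) were at least 2-fold below both groups, led by Reg1, Cyp3a13, Pyy, Slc5a1 and Katna1. The counts above and below both depended on the cells taken. They were 9 and 140 with a Tph1 minimum of 20, 8 and 61 without the highest doublet scores, and 14 and 198 in double-high cells with Chga under 20. Slc5a1, the sodium-glucose cotransporter SGLT1, had 34 UMIs in all double-high cells, 0.43 times the Cck-only level (0.29 to 0.62) and 0.38 times the Tph1-only level (0.26 to 0.54).

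The double-high cells were not uniform. Their Chga level (Chga, chr12:102554969-102565028, plus strand) ran from 0 to 202 with a median of 12, and 91 cells were under 5, 15 from 10 to under 20, 16 from 20 to under 30 and 67 at 40 or more. A division at 20, chosen after the values had been seen, gave 124 Chga-low and 99 Chga-high cells, with 10 cells from 15 to under 25. It is a range and not a cell type, and what follows is a description. Of Cck-only cells 9.89% were at 20 or more, and of Tph1-only cells 97.8%. Reg4 (chr3:98222156-98236748, plus strand), which was not used for the division, was at 20 or more in 65 of 99 Chga-high and 4 of 124 Chga-low cells. Over the 223 cells the Spearman correlation of Chga was 0.78 with Chgb, 0.66 with Reg4, -0.59 with Cck and 0.26 with Tph1. These levels share the total of each cell, of which Cck alone took a large part, and the values of rho carry no test.

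**Figure D3:**
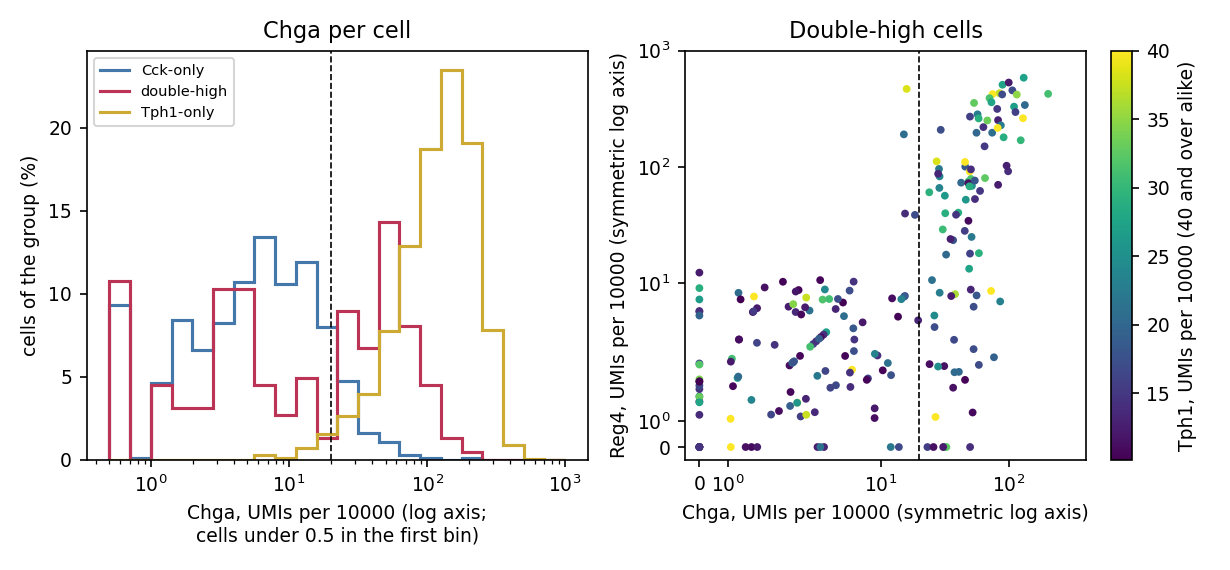
The left panel gives the percentage of Cck-only, double-high and Tph1-only cells in bins of the Chga level (log axis, cells under 0.5 in the first bin). The right panel plots Chga against Reg4 for the 223 double-high cells on symmetric log axes, colored by Tph1 level. The dashed line marks a Chga level of 20, and 65 of 99 cells to its right but 4 of 124 to its left have Reg4 at 20 or more.

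The 124 Chga-low cells were compared with all Cck-only cells and with the 665 that were under 20 as well, the second chosen after seeing the data. Their summed Tph1 level was 18.6, against 23.2 in Chga-high cells, and their Cck level of 1754 was close to the 1758 of Cck-only cells. Slc18a1 was at 0.92 (0.89 in all Cck-only cells), Ddc at 1.92 (1.89) and Cartpt at 0.28 (0.30). Against the 665 cells, the ratio was 1.08 for Slc18a1 (0.83 to 1.40), 1.03 for Ddc (0.86 to 1.23) and 1.27 for Cartpt (0.76 to 2.04), with intervals that include 1. Reg4, at 9.76, was 1.37-fold above all Cck-only cells and 2.64-fold (2.41 to 2.88) above the 665. Afp, at 0.73, was 0.77 times the level of all Cck-only cells and 2.54-fold (1.82 to 3.50) above that of the 665. Chga was at 4.59, which the division set. Chgb, which moved with Chga, was at 36.4, 0.40 times the level of all Cck-only cells (0.39 to 0.42) and 0.45 times that of the 665 (0.43 to 0.47). Of the 10 enterochromaffin genes measured against all Cck-only cells, none was 2-fold higher and 4 were 2-fold lower (Ucn3, Trpa1, Chgb and Fev). Of the 8 measured against the 665 cells, Chga left out, 2 were higher (Reg4 and Afp) and 2 lower (Chgb and Fev), with a median ratio of 1.31. Only listed and named genes were compared with the 665 cells, so these counts have no share over all genes beside them. Over all genes 0.762% (55 of 7218) were 2-fold higher and 3.71% (268) lower than in all Cck-only cells. Uts2b was 3.67-fold (2.58 to 5.18) above all Cck-only cells and 3.39-fold (2.38 to 4.78) above the 665, and March11 3.42-fold (2.26 to 5.12) and 3.26-fold (2.15 to 4.90). Ccl5, a chemokine of lymphocytes, had a larger ratio to the 665 cells than both, at 4.62-fold (3.65 to 5.83). Its levels are given with the other cell types below. Of the 121 genes that were 2-fold above Cck-only cells in all double-high cells, 23 were so in the Chga-low cells. Of the 124 cells, 9 were among those of highest doublet score (7.26%, 3.37 to 13.3%), and without them Tph1 was at 18.7 and Reg4 at 3.81, near the 3.70 of the 665 cells. Lmx1a (chr1:167689237-167848741, plus strand) had 12 UMIs in the 124 cells and 7 without the 9.

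The 99 Chga-high cells carried both sets at intermediate levels. Cck was at 1105, Sct at 1141 and Nts at 61.9, beside Reg4 at 131, Chgb at 184, Afp at 13.0, Cartpt at 8.22, Lmx1a at 0.99 and Trpa1 at 0.95. Compared with Chga-low cells, 5.27% of genes (170 of 3223) were 2-fold higher and 0.776% (25) lower. Of these 170 genes, 111 were also at least 2-fold higher in Tph1-only than in Cck-only cells. The share of all 3223 genes with that difference was not computed, so this count is a description only. The predicted gene Gm42637 differed most (38.2-fold, 12.7 to 189), followed by Cartpt (29.2-fold, 19.1 to 46.9), Trpa1 (24.7-fold, 8.09 to 123), Afp (17.9-fold, 13.7 to 23.8) and Reg4 (13.5-fold, 12.51 to 14.52). Compared with Cck-only cells, 4.47% (324 of 7243) of genes were 2-fold higher and 2.44% (177) 2-fold lower. Among the cells of highest doublet score were 47 of these 99 (47.5%, 37.3 to 57.8%). In the 52 that were not, Tph1 was at 24.3, Cck at 1111, Reg4 at 101.1, Chga at 56.1 and Trpa1 at 0.71. The Chga-high cells had a median of 6518 UMIs and 2192 genes, against 6136.5 UMIs and 1839.5 genes in Chga-low cells, and 14 of the 99 and 9 of the 124 lay above the 9054.5 UMIs given by the medians of the comparison groups.

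**Figure D4:**
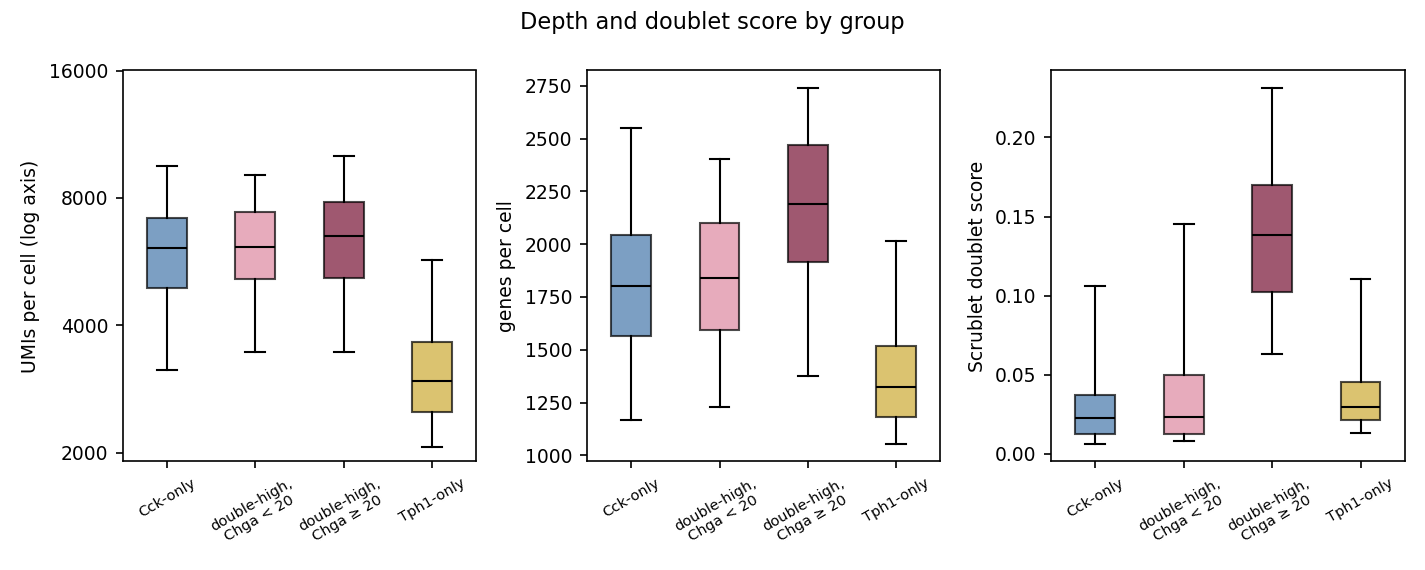
UMIs per cell (log axis), genes per cell and Scrublet doublet score in Cck-only, Chga-low double-high, Chga-high double-high and Tph1-only cells. Boxes span the quartiles, the line is the median and whiskers reach the 5th and 95th percentiles. The Chga-high cells have a median depth close to that of Cck-only cells (6518 and 6104.5 UMIs) and a higher median score (0.14 against 0.023).

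The distance from each comparison group was also expressed over whole sets of genes. For each gene the difference between the Cck-only and the Tph1-only level was set to 100%, and the double-high level was placed on that scale, with 0 at Cck-only cells. For 195 genes that were at least 4-fold higher in Tph1-only cells, with at least 200 UMIs in the pair of groups, the median position was 19.0% for all double-high cells, 0.81% (quartiles -3.38 and 5.37) for Chga-low and 39.1% (quartiles 30.3 and 48.7) for Chga-high cells. For 51 genes at least 4-fold higher in Cck-only cells it was 20.9% (quartiles -5.44 and 42.96), 14.2% (-30.8 and 43.7) and 37.6% (21.3 and 46.6). The Chga-low cells were thus near the Cck-only end on the first set, while the second set placed them only loosely. These positions are a description, because the cells were divided by Chga after the values had been seen. Over the double-high cells, Chga correlated with Chgb (Spearman rho 0.78) and Reg4 (0.66). The Cck-only cells were not divided in this way, and 9.89% of them had Chga at or over the division. How much of the Chga-low position the division itself set was not tested.

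The share of Chga-high cells rose with the Tph1 level only in part. It was 25 of 85 cells (29.4%) for Tph1 from 10 to under 15, 19 of 45 (42.2%) from 15 to under 20, 35 of 57 (61.4%) from 20 to under 30, and 20 of 36 (55.6%) at 30 or more. Cells with a Tph1 level of 30 or more and Chga under 20 were thus present.

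Of 20 measured transcription factors, 3 were 2-fold higher than in Cck-only cells (Lmx1a, Foxa1 and Sox4) and none was 2-fold lower. Of 21 measured against Tph1-only cells, 6 were 2-fold higher, among them Isl1, Etv1, St18, Prox1 and Onecut3, and 7 were 2-fold lower. Over all genes, too, more passed 2-fold against Tph1-only cells (2.21% higher and 11.3% lower) than against Cck-only cells (1.59% and 1.07%). Isl1, a LIM-homeobox factor, was at 0.90 in double-high, 1.53 in Cck-only and 0.082 in Tph1-only cells. Etv1, an ETS factor, was at 1.42, 2.28 and 0.082. Isl1 was at 1.00 in Chga-low and 0.79 in Chga-high cells, so that it was above the Tph1-only level in both. Neurod1, shared by most enteroendocrine cells, was at 9.92, 9.78 and 13.2.

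Among 12 measured sensing genes, 2 were 2-fold higher than in Cck-only cells, both of them channels (Trpa1 and Trpm2), and 4 were 2-fold lower, beside 1.59% higher and 1.07% lower of all genes, which is also the background of the other lists here. The lower ones were Gpr119, a receptor for lipid amides, Abcc8, a subunit of the ATP-sensitive potassium channel, and the sugar transporters Slc5a1 and Slc2a5. Gpr119 had only 4 UMIs in the double-high cells, at 0.028 against 0.15. Against the same 369 Cck-only cells, Abcc8 was at a ratio of 0.63 and Slc5a1 at 0.44. Ffar2 and Ffar4, receptors for short- and long-chain fatty acids, were at 1.88 and 1.03 in double-high and 1.32 and 1.10 in Cck-only cells. Of 17 exocytosis and excitability genes, Syt7 (2.01-fold) and Cacna1d (2.21-fold) passed 2-fold against Cck-only cells and none was 2-fold lower. Of 12 granin and granule genes, Chga and Vgf did so and none was 2-fold lower. Of 8 prohormone-processing genes none differed 2-fold.

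The summed markers of other cell types were below their levels in free RNA. The 8 goblet genes, 4 of them capped by the rule, summed to 408 in double-high, 372 in Cck-only and 358 in Tph1-only cells, against 4379 in goblet cells and 2240 in free RNA. The 8 enterocyte genes summed to 27.5, 31.7 and 58.9 (free RNA 73.2), the 5 Paneth genes to 36.2, 32.0 and 67.2 (free RNA 346), the 6 tuft genes to 1.06, 0.74 and 1.77 (free RNA 1.79), the 7 genes of cycling or immature crypt cells to 0.48, 0.81 and 1.05 (free RNA 2.41) and the 6 immune genes to 0.73, 0.70 and 0.60 (free RNA 1.23). The immune sum was 1.10 in Chga-low and 0.30 in Chga-high cells, and Ccl5, a chemokine of lymphocytes, was at 1.78 in Chga-low, 0.10 in Chga-high, 0.37 in Cck-only and 1.48 in Tph1-only cells, and at 1.62 in free RNA. Their part in the Chga-low values was not tested.

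The sorted libraries show the same genes in the whole CCK+ population, in the authors' normalized counts, with limma and Benjamini-Hochberg adjustment over 22042 genes. They cannot show which cells held a transcript, and a change in cell numbers and in RNA per cell cannot be told apart. Cck, which checks the labels, was between 14837 and 32592 in the 6 CCK+ libraries and between 27.6 and 86.0 in the 6 CCK- libraries. Tph1 ran from 4994 to 21358 in CCK+ (median 13580) and from 100 to 223 in CCK- libraries (median 200), and the groups did not overlap. The difference was 6.18 ± 0.27 on the log2 scale (SE, limma adjusted p = 8.38e-10, higher in 6 of 6 pairs sharing a letter). Chga, Chgb, Reg4, Lmx1a and Trpa1 were higher by 5.91, 6.24, 6.46, 5.21 and 6.17, again with no overlap. Of all genes, 19.6% were called higher and 14.1% lower in CCK+ libraries. All 16 enterochromaffin genes were called higher, and of 12 serotonin genes 6 were called higher (Tph1, Gch1, Qdpr, Pcbd1, Slc18a1 and Slc18a2) and 3 lower (the serotonin transporter Slc6a4 and the monoamine oxidases Maoa and Maob). Ddc ran from 865 to 1345 in CCK+ and from 733 to 1300 in CCK- libraries, which overlapped, with a difference of 0.20 ± 0.16 (adjusted p = 0.37). Of the immune genes, 5 of 6 were also called higher in CCK+ libraries, and their part in these differences was not tested.

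All 5 genes that ranked highest above both groups of droplet cells were called higher in sorted CCK+ cells, all but Smad6 at low counts. Of all genes, 19.6% were called higher. So were 8 of 9 genes with the smallest ratios to Tph1-only cells and 6 of 10 with the smallest ratios to Cck-only cells. A higher call was therefore not particular to genes that were high in double-high cells. Gast ran from 1.21 to 9.57 and March11 from 1.00 to 7.30 in CCK+ libraries, and both were listed at 0 in every CCK- library. Uts2b ran from 0 to 9.62 and was listed at 0 in the CCK- libraries, with a difference of 1.58 ± 0.44 (adjusted p = 0.011, higher in 5 of 6 pairs). The call was lost in the fasted (adjusted p = 0.34) and in the refed libraries alone (adjusted p = 0.0647). Smad6 ran from 111 to 167 in CCK+ and from 26.8 to 112 in CCK- libraries (1.42 ± 0.16, adjusted p = 1.19e-05). Etv4 was at the threshold (1.74 ± 0.64, adjusted p = 0.0498) and lost the call in 13 of 17 alternative fits. Of the 5 genes lowest against both droplet groups, Reg1, Cyp3a13, Slc5a1 and Katna1 were called lower in CCK+ libraries and Pyy higher.

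**Figure D5:**
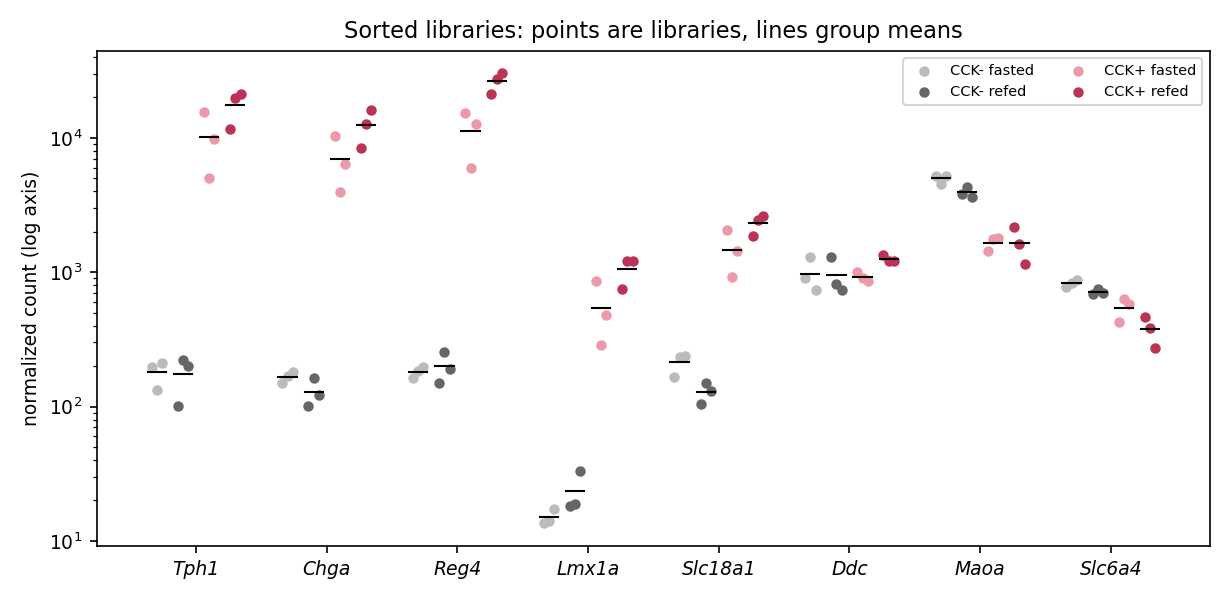
Normalized counts (log axis) of 8 genes in the 12 sorted libraries, 3 per group. Points are libraries and lines are group means. Tph1, Chga, Reg4, Lmx1a and Slc18a1 are higher in all CCK+ than in all CCK- libraries, Ddc overlaps, and Maoa and Slc6a4 are lower in all CCK+ libraries.

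Refeeding was called for few of these genes. In refed against fasted CCK+ libraries, 1.31% of genes were called higher and 1.23% lower. Tph1 was at 15465, 4994 and 9773 in the fasted and 11695, 19744 and 21358 in the refed CCK+ libraries. The groups overlapped, and the difference of 0.90 ± 0.38 was not called (adjusted p = 0.25). Reg4 was at 15260, 6000 and 12594 in the fasted and 21108, 27519 and 30226 in the refed CCK+ libraries, which did not overlap, with a difference of 1.31 ± 0.29 (adjusted p = 0.029). Afp differed by 1.59 ± 0.34 (adjusted p = 0.023), and these were the 2 of 16 enterochromaffin genes that were called. The median log2 difference of the 16 was 1.09, beside 0.83 for the 12 granin and granule genes and 0.0081 over all genes. These medians were not tested. When each of the 12 libraries was left out in turn, the adjusted p of Reg4 ranged from 0.030 to 0.18 and its call was lost 11 times, and that of Afp ranged from 0.029 to 0.15 and its call was lost 7 times. Of 12 serotonin genes, Qdpr was called higher (1.17 ± 0.27, adjusted p = 0.035), and among the nutrient transporters Slc5a1 (-1.02 ± 0.24, adjusted p = 0.039) and the peptide transporter Slc15a1 (-1.44 ± 0.20, adjusted p = 0.0036) were called lower. The calls of Qdpr and Slc5a1 were each lost when any of 10 of the 12 libraries was left out. None of the 16 hormones was called.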

How the data were processed

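For the droplet library, the deposited counts are UMIs per gene and barcode from Cell Ranger 2.0.1 on mm10, without normalization. For the sorted libraries, the authors ran Trim Galore 0.6.7 and Salmon 1.6.0 (GRCm39) and deposited gene counts divided by DESeq2 normalization factors, a signal that is not whole. Its depth in reads is unknown. Each sorted group has 3 libraries, 1 per mouse.

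Barcodes with more than 1000 genes and under 10% mitochondrial UMIs were kept (1754 to 65130 UMIs each). Members, comparison groups and gene lists were chosen with earlier results of these data known. Genes outside the rule with at least 50 UMIs over both groups were compared by the ratio of summed UMIs per 10000, and 2-fold counted as called. A count of 0 was replaced by 3 counts over the group. Intervals are exact (Poisson, Clopper-Pearson, conditional). The text names genes of the 14 lists, the 10 largest and 10 smallest ratios to each group among genes found in at least 10% of cells, and the 5 furthest above or below both groups. Genes named for Chga-low and Chga-high cells were chosen later. Sorted libraries were fitted by limma 3.58.1 in R 4.3.3 on log2(normalized count + 1) with a mean per group and a mean-variance trend. The read names in the deposited table give 1 CCK+ and 1 CCK- library the same letter, which was taken to mark the mouse. Deviations of such pairs from the group means correlated at 0.0773 to 0.124, over 0.1 in 3 of 6. A fit with this letter as a block was an alternative. Python 3.11.15, scipy 1.17.1 and scanpy 1.11.5 were used, and both scripts were tested on simulated data.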

Additional observations from a re-analysis of the deposited data

How the results depend on the processing

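The droplet results come from 1 library, so no alternative can show how they vary between mice. The number of double-high cells depended on the Tph1 minimum, with 368 cells at 5 and 93 at 20, and stayed within 1.5 times of 223 under the other 9 alternatives. Counts of genes past 2-fold are given in the order higher and lower than Cck-only cells, higher than Tph1-only cells, above both and below both (121, 82, 191, 4 and 34 as reported). With 100 UMIs required per gene they were 62, 35, 107, 1 and 15, with fewer genes tested. With cells thinned to 2000 UMIs, they were 61, 49, 120, 4 and 20. With Tph1 at 20 they were 185 higher and 235 lower than Cck-only cells, 9 above both and 140 below both. Without limits on the other hormones and goblet genes, 10 genes were above both. Without the highest doublet scores, 8 were above and 61 below both.

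Another 3 alternatives were chosen after seeing the data, of which the comparison with the 665 Cck-only cells of low Chga is given in the text. Against Cck-only cells with Gcg and Pyy both under 10, 51 genes were 2-fold lower and 2 were above both, and the ratios of Gcg (3.07) and Pyy (8.18) turned, as the choice of cells sets. In double-high cells with Chga under 20, the counts were 55 higher and 268 lower than Cck-only cells, 1722 lower than Tph1-only cells, 14 above both and 198 below both, and the ratios to Cck-only cells of Cartpt (0.93), Gm42637 (0.44), Kazald1 (0.89) and Afp (0.77) fell under 1. Of 448 alternative ratios of 56 genes, 376 stayed within their counting interval, 66 moved beyond it and 6 turned. Where no cause is named, the cause was not tested.

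In the sorted libraries, 7431 genes were called between CCK+ and CCK-, 2169 in the fasted libraries alone, with fewer samples, and 6520 to 7618 with each library left out. With the letter taken to mark the mouse as a block, to keep the pairing, 7445 genes were called. No call changed among the 39 genes followed in these alternatives, and the other named genes were not followed. Between refed and fasted CCK+ libraries 561 genes were called (3736 at an unadjusted p under 0.05), from 103 without refed CCK+ replicate 2 to 876 without fasted CCK+ replicate 1. Counts lower by over 1.5 times were also found without fasted CCK+ replicates 2 (193) and 3 (351), refed CCK+ replicate 3 (183) and refed CCK- replicate 2 (333). The alternatives were followed for 6 genes called for refeeding, namely Reg4, Afp, Qdpr, Slc5a1, Cyp3a13 and Katna1. Cyp3a13 was called lower (limma adjusted p = 0.017) and Katna1 higher (limma adjusted p = 0.047). Of 90 alternative values of these 6 genes, 56 lost the call. Slc15a1 was not among them.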

Other observations

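Cells just outside the rule were also examined, as values only. The 41 cells that the goblet limit removed had Cck at 1036, Tph1 at 17.3, Chga at 21.3, Reg4 at 41.5 and Uts2b at 1.04 UMIs per 10000, with a median of 7294 UMIs, and 17 of them (41.5%) were among the cells of highest doublet score. The 13 cells with Tph1 at 10 or more and Cck from 200 to under 500 had Tph1 at 29.1, Chga at 56.2, Reg4 at 112 and Pyy at 54.4, and 3 of them were among the cells of highest doublet score.

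The 73 Cck-only cells with Chga at 20 or more had Chgb at 185.6, Reg4 at 42.2, Gcg at 48.8 and Pyy at 38.1, but Tph1 at only 2.78 and Uts2b at 0.025. Their median depth was 5490 UMIs, and 11 of them (15.1%) were among the cells of highest doublet score.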
